A study of Homo sapiens with 8 samples.

Results

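Epithelial and stromal-type miRNAs, microRNAs known chiefly from epithelial sheets or from smooth muscle and fibroblasts, were followed in exosomes of a macrophage cell model. The members were taken by name, without regard to their values: every entry of the exosome miRNA table of the miR-200 family (miR-200, miR-141, miR-429), miR-203, miR-205, miR-192, miR-194, miR-143 or miR-145. This gave 12 of 286 entries: 5 of the miR-200 family, 3 of miR-203 and miR-205, 2 of miR-192 and miR-194, and 2 of miR-143 and miR-145. The opposite arm of most of these hairpins had no entry, nor had miR-141-3p.

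The exosomes, small vesicles shed by cells, came from THP-1, a human monocytic leukaemia line kept in medium with 10% fetal bovine serum, with 1 library labelled M0-exo and another labelled M2-exo. By convention M0 denotes unpolarised and M2 alternatively activated macrophages. The sources used here do not give how the cells were brought to either state, how vesicles were isolated or whether the serum was freed of bovine vesicles. The recipient cells were Caco-2, a human colorectal carcinoma line that the series uses as intestinal epithelial cells, grown with 18% serum and given PBS (3 libraries, untreated) or M2-exo (3 libraries, M2-exo treated). Both lines are recorded as wild type, and both carry the cell type label "stem cells", which is not a property of either line. The sources give no dose, no treatment time and no word on whether replicates were separate cultures. The p-values of the Caco-2 tests therefore set group differences only against the spread of these samples, and that spread may be technical.

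A miRNA guides the silencing machinery to mRNAs that pair with its seed, bases 2 to 8 from its 5′ end. The miR-200 family holds cells in the epithelial state by repressing ZEB1 and ZEB2, transcription factors that in turn repress the miR-200 genes. In skin miR-203 drives keratinocytes out of the cell cycle by repressing TP63, and miR-205 marks stratified epithelia. Enterocytes and liver cells are rich in miR-192 and miR-194, whereas in the gut wall miR-143 and miR-145 belong to smooth muscle and fibroblasts and are scarce in the epithelium itself.

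The mature sequences below, from RefSeq on GRCh38.p14, are those on which the results turn, and all 12 members had an entry there. Capitals mark the seed, written 5′ to 3′. The most abundant member and its cluster partner, which have unrelated seeds, come first, then the miR-200 family, then the overlapping miR-203 pair.
miR-143-3p: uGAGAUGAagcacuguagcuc
miR-145-5p: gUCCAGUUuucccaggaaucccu
miR-200b-3p: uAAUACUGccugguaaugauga
miR-200c-3p: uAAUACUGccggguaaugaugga
miR-429: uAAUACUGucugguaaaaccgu
miR-200a-3p: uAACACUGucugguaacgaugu
miR-203a-3p: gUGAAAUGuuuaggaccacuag
miR-203b-5p: uAGUGGUCcuaaacauuucaca

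In the miR-200 family, miR-200b-3p, miR-200c-3p and miR-429 share the seed AAUACUG. Counted from 1 at the 5′ end, miR-200b-3p and miR-200c-3p differ within their common length by the substitutions U11G and A22G, outside the seed. The seed of miR-200a-3p, AACACUG, differs from it by C4U (miR-200a-3p to miR-200b-3p). The opposite arm miR-200a-5p has the unrelated seed AUCUUAC. How the counting treated reads that fit more than 1 such entry is not given, so the division of counts between miR-200b-3p and miR-200c-3p is uncertain. Their genes lie apart: MIR200B, MIR200A and MIR429 form 1 cluster on chromosome 1 (miR-200b-3p at chr1:1167160-1167181, plus strand), and MIR200C lies on chromosome 12 (mature product at chr12:6963742-6963764, plus strand) inside the noncoding gene MIR200CHG.

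The exosome libraries held 13584 miRNA counts in M0-exo and 9929 in M2-exo. The sources do not say if these totals cover the whole libraries. The labelled source was checked against myeloid miRNAs. The broadly abundant miR-21-5p led both libraries (27.2% and 19.5% of counts), and the inflammation-induced miR-155-5p held 1.88% and 2.59%. By contrast, miR-223-3p and miR-142-3p, which define myeloid and blood cells, held 2 counts each in M0-exo and 0 in M2-exo, where a count of 0 allows up to 0.0302%. With miR-142-5p, at 5 and 1 counts, the 3 markers summed to 9 and 1 counts, against 31 and 34 for the miR-200 family. In both libraries the miR-200 family thus held more counts than these 3 markers together. Its shares were 0.228% (0.155 to 0.324) and 0.342% (0.237 to 0.478), against 0.0663% (0.0303 to 0.126) and 0.0101% (0.000255 to 0.0561). The other 2 miRNAs of the check went the other way. Far above the miR-200 family stood miR-155-5p, at 255 and 257 counts, and miR-21-5p, at 3690 and 1937. Intervals in brackets are exact 95% intervals (Clopper-Pearson for shares) and cover counting error only, because without molecular identifiers reads cannot be taken as independent molecules. Whether different sequences were captured evenly was not tested. Comparisons between miRNAs here and below are therefore of read counts, not of molecules.

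With 1 library per group, every ratio below compares 2 libraries, not 2 conditions, and no test was possible. In bulk vesicle RNA, fewer vesicles with a miRNA and fewer copies per vesicle cannot be told apart. Together the members held 380 counts in M0-exo, 2.80% (2.53 to 3.09), and 428 in M2-exo, 4.31% (3.92 to 4.73). The ratio of shares, M2-exo over M0-exo, was 1.54 (1.34 to 1.77). A single entry, miR-143-3p, made up 80.5% of the member counts in M0-exo (76.2 to 84.4) and 75.7% in M2-exo (71.4 to 79.7). The other 11 entries held 74 counts, 0.545%, and 104 counts, 1.05% (ratio 1.92, 1.41 to 2.63). That sum holds miR-203a-3p and miR-203b-5p, whose equal counts are described below; with these counted once it was 53 and 73 counts (ratio 1.88, 1.30 to 2.74).

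The scaling bears on every ratio. TMM factors, a scaling from a trimmed and weighted mean of the entries' log ratios, divided each ratio by 1.26, a shift of 0.33 on the log2 scale. With them the ratio of all members was 1.22 (1.06 to 1.41). With totals that leave out miR-21-5p, the most abundant entry, it was 1.39 (1.21 to 1.61).

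**Figure D1:**
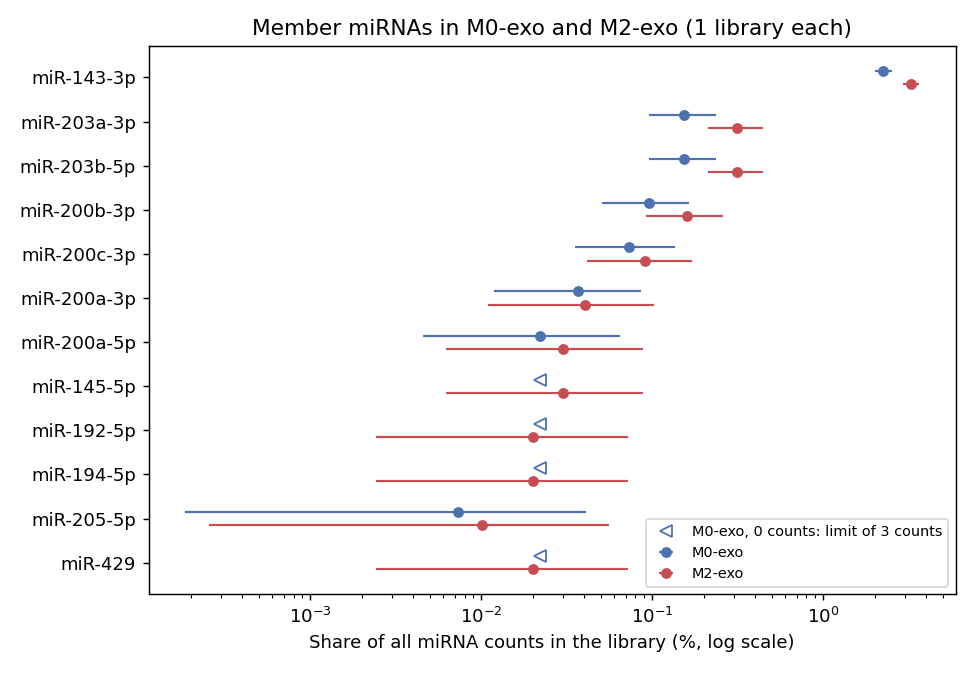
Share of all miRNA counts (percent, log scale) held by each of the 12 members in M0-exo (blue) and M2-exo (red), with exact 95% counting intervals as bars. Open arrowheads stand at the limit that 0 counts allow in M0-exo, 0.0221%, and miR-143-3p lies above all other members in both libraries.

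Among the stromal-type members, miR-143-3p (chr5:149428978-149428998, plus strand, inside the noncoding gene CARMN) held 306 counts in M0-exo and 324 in M2-exo. These are shares of 2.25% (2.01 to 2.52) and 3.26% (2.92 to 3.63), and the intervals do not overlap. It was the ninth most abundant entry in each library, above every other member, with 120.0 counts per 100 of miR-155-5p in M0-exo and 126 in M2-exo. The ratio of its shares was 1.45 (1.24 to 1.70) by total counts, but 1.15 (0.981 to 1.35) with TMM factors, where the interval came to include 1. Set against miR-21-5p in the same library, miR-143-3p stood at 8.29 counts per 100 in M0-exo and 16.7 in M2-exo, a factor of 2.02 (1.70 to 2.39). Set against miR-155-5p, the factor was 1.05 (0.826 to 1.34). The ratio of miR-143-3p thus depended on the reference, and against miR-155-5p its interval included 1.

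The cluster partner miR-145-5p had almost no counts. MIR143 and MIR145 lie on the same strand of chromosome 5, with 1662 bases between their outermost mature products, and are both spanned by CARMN. The counts of miR-145-5p were 0 in M0-exo and 3 in M2-exo (chr5:149430661-149430683). Of the cluster's counts, miR-143-3p held 306 of 306 in M0-exo (lower bound 98.8%) and 324 of 327, or 99.1%, in M2-exo (97.3 to 99.8%). With 0 and 3 counts, no fold between the libraries was given for miR-145-5p, since neither value is above the limit of 3 counts.

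Entries outside the member list with a ratio nearest that of miR-143-3p, among those whose larger count was 50 or more, were miR-30c-5p, miR-486-3p and miR-1246. Their counts were 661 and 687, 83 and 91, and 191 and 193, in M0-exo and M2-exo respectively. On the log2 scale their ratios lay 0.03, 0.05 and 0.07 from that of miR-143-3p. These entries were picked as the nearest, so the small distances are no finding, and they rest on 2 libraries only.

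Next in abundance stood the epithelial miR-203. The entry miR-203a-3p (chr14:104117469-104117490, plus strand) held 21 counts in M0-exo, 0.155% (0.0957 to 0.236), and 31 in M2-exo, 0.312% (0.212 to 0.443). It ranked 58 of 286 entries in M0-exo and 32 in M2-exo. The ratio was 2.02 (1.12 to 3.70) by total counts and 1.60 (0.892 to 2.94) with TMM factors, where the interval included 1. Per 100 counts of miR-143-3p it stood at 6.86 and 9.57, a factor of 1.39 (0.757 to 2.61), so a difference between the ratios of these 2 members was not detectable at this depth.

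The entry miR-203b-5p held exactly the same counts, 21 and 31. Its gene, MIR203B, lies on the minus strand within MIR203A, and the mature products overlap by 21 bases (chr14:104117469-104117489). Written as its reverse complement, miR-203b-5p can be laid directly beside miR-203a-3p, and 21 of 21 overlapping bases match:
miR-203a-3p: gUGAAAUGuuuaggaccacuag
miR-203b-5p reversed and complemented: ugugaaauguuuaggaccacua

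The seeds, UGAAAUG and AGUGGUC, are unrelated, since the strands are read in opposite directions. Other entries were examined for the same pattern. The table holds 13 pairs of entries whose mature products overlap by at least 15 bases on opposite strands of 1 locus in RefSeq, and 10 of the 13 had equal counts in both libraries. Most of the equal pairs hold 6 counts or fewer, where equality says little; of the 5 pairs with at least 10 counts throughout, 3 were equal. They included miR-24-3p with miR-3074-5p, at 39 and 39 counts in M0-exo and 16 and 16 in M2-exo, and miR-3184-3p with miR-423-5p, at 61 and 61, and 58 and 58. The exceptions were close: miR-103a-3p and miR-103b held 37 and 34 counts in M0-exo and 18 and 16 in M2-exo, miR-3184-5p and miR-423-3p held 33 and 33, and 23 and 24, and miR-214-3p and miR-3120-5p held 1 and 0, and 3 and 1. Conversely, 5 pairs of entries had equal counts of at least 10 in both libraries, and 3 of them were such opposite-strand pairs. The others were miR-122-5p with miR-122b-3p and miR-7-5p with miR-3529-3p, which the search did not place on opposite strands of 1 locus. It could place only entries with RefSeq mature coordinates, found for 249 of 286, so such an overlap is not excluded for these pairs. The strand of the reads is not in the table, so the miR-203 counts cannot be assigned to either entry, and the pair is best read as 1 observation. With this pair, miR-24-3p with miR-3074-5p, and miR-3184-3p with miR-423-5p each counted once, miR-203 and miR-205 had a ratio of 1.99 (1.12 to 3.60), and all members 1.52 (1.31 to 1.75).

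**Figure D2:**
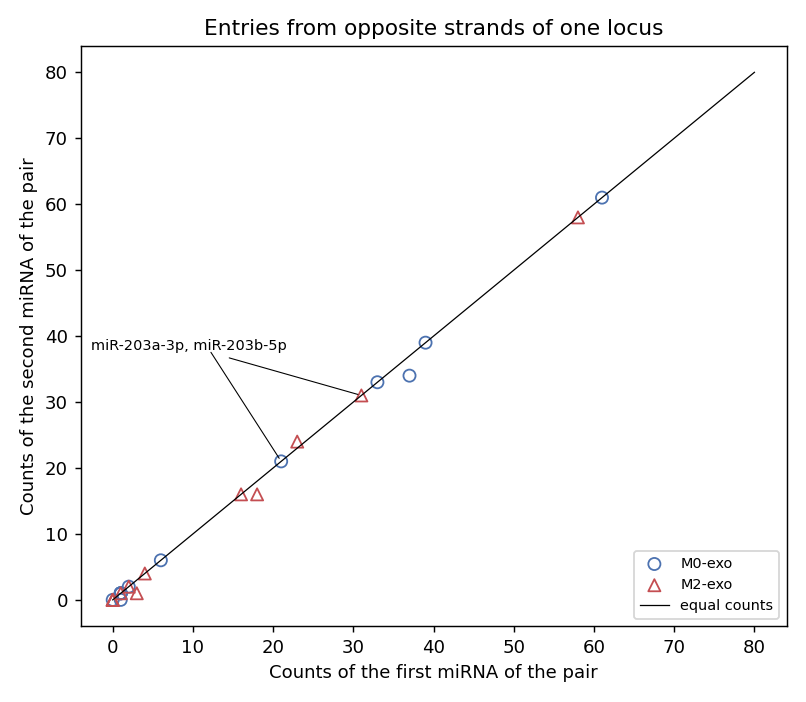
Counts of the first against the second miRNA of 13 pairs of entries that overlap on opposite strands of 1 locus, in M0-exo (circles) and M2-exo (triangles), with the line of equal counts. The pair of miR-203a-3p and miR-203b-5p lies on the line at 21 counts in M0-exo and 31 in M2-exo.

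The remaining epithelial member of this group, miR-205-5p (chr1:209432166-209432187, plus strand, inside MIR205HG), held 1 count in each library, so the squamous marker was at the edge of detection. It gave no usable ratio (1.37, 0.0174 to 107).

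The miR-200 family held 31 counts in the M0-exo library and 34 in the M2-exo library. The ratio of its shares was 1.501 (0.895 to 2.52) by total counts and 1.19 (0.710 to 2.00) with TMM factors. A difference was not detectable at this depth by either scaling. The member with the most counts, miR-200b-3p, held 13 and 16 counts, 0.0957% (0.0510 to 0.164) and 0.161% (0.0921 to 0.262), a ratio of 1.68 (0.759 to 3.81). The product of the chromosome 12 gene, miR-200c-3p, held 10 and 9 counts, 0.0736% (0.0353 to 0.135) and 0.0906% (0.0415 to 0.172). Its ratio was 1.23 (0.443 to 3.37) by total counts and fell on the other side of 1, at 0.977 (0.351 to 2.68), with TMM factors. Relative to miR-200b-3p, miR-200c-3p stood at 76.9 counts per 100 in M0-exo and 56.3 in M2-exo, a factor of 0.731 (0.196 to 2.72), which covers equality.

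The chromosome 1 cluster was led by miR-200b-3p in both libraries, with 13 of 21 counts in M0-exo (61.9%, 38.4 to 81.9) and 16 of 25 in M2-exo (64.0%, 42.5 to 82.0). Both arms of the miR-200a hairpin were counted: the 3p arm, usually the main product, held 5 and 4 counts, and the 5p arm 3 and 3. The share of the 5p arm was 37.5% (8.52 to 75.5) and 42.9% (9.90 to 81.6), so these few counts do not show which arm led. The third gene of the cluster, miR-429, held 0 and 2. By seed, the AAUACUG members summed to 23 and 27 counts (ratio 1.61, 0.887 to 2.93), and miR-200a-3p, with the AACACUG seed, stayed at 5 and 4 counts.

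The gut and liver members were at the edge of detection too. Both miR-192-5p (chr11:64891203-64891223) and miR-194-5p, which is encoded next to it on the minus strand of chromosome 11 and again on chromosome 1, held 0 counts in M0-exo and 2 in M2-exo. Equal counts of 2 do not mark them as 1 observation: unlike the miR-203 pair, their sequences do not overlap, and 144 bases separate the mature products of MIR192 from those of MIR194-2. Together they held 0 and 4 counts. In M0-exo a count of 0 allows up to 0.0221%, the limit of 3 counts in the library. The M2-exo share of 0.0403% was 1.82 times that limit. The exact counting interval of the ratio began at 0.903 and so included 1.

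In order of read counts, miR-143-3p stood apart from all other members, with no overlap of counting intervals in either library. Below it, neighbours in the order overlapped: miR-203a-3p with miR-200b-3p, miR-200b-3p with miR-200c-3p, and miR-200c-3p with miR-200a-3p. The order miR-203a-3p, miR-200b-3p, miR-200c-3p, miR-200a-3p was the same in both libraries.

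The members' ratios were then read against the table as a whole. Of the 12 members, 5 had a larger count of 10 or more, as did 84 of 286 entries. The nearest members on either side of this minimum were miR-200c-3p, at 10 counts in its higher library, and miR-200a-3p, at 5. A ratio of at least 2 was reached by miR-203a-3p and miR-203b-5p, which are best read as 1 observation, and by 9.52% of all 84 entries. Counting both directions, ratios of 2 and above or 0.5 and below made up 15.5% of entries. An interval wholly above 1 was found for miR-143-3p and the 2 miR-203 entries, and for 22.6% of all entries. The ratios of the 5 members ranged from 1.23 to 2.02, with a median of 1.68, beside a median of 1.08 over the 84 entries and a range from 0.210 to 3.42. All 5 lay above 1, as did 50 of the 84. The 5 and their median hold the miR-203 pair as separate values, and with equal rows counted once 4 members are left. With TMM factors 0 of the 5 members and 2.38% of the 84 entries reached 2, 12 entries lay at or below 0.5, and miR-200c-3p fell below 1. With median ratio factors 0 of the 5 members and 3.57% of entries reached 2. Most entries past 2-fold were thus higher in M2-exo by total counts, 8 against 5, and lower with TMM factors, 2 against 12.

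**Figure D3:**
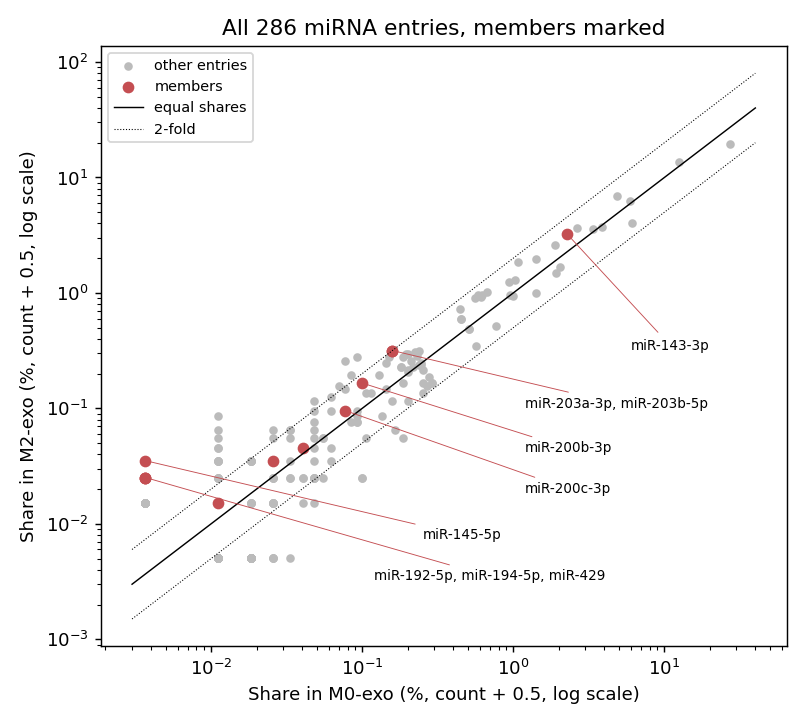
Share of counts in M2-exo against M0-exo for all 286 entries, in percent on log scales after adding 0.5 to each count so that entries at 0 can be drawn, with members in red. The solid line marks equal shares and the dotted lines a 2-fold difference; the miR-203 entries, at a ratio of 2.02, lie close to the upper dotted line, within the spread of the other entries.

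**Figure D4:**
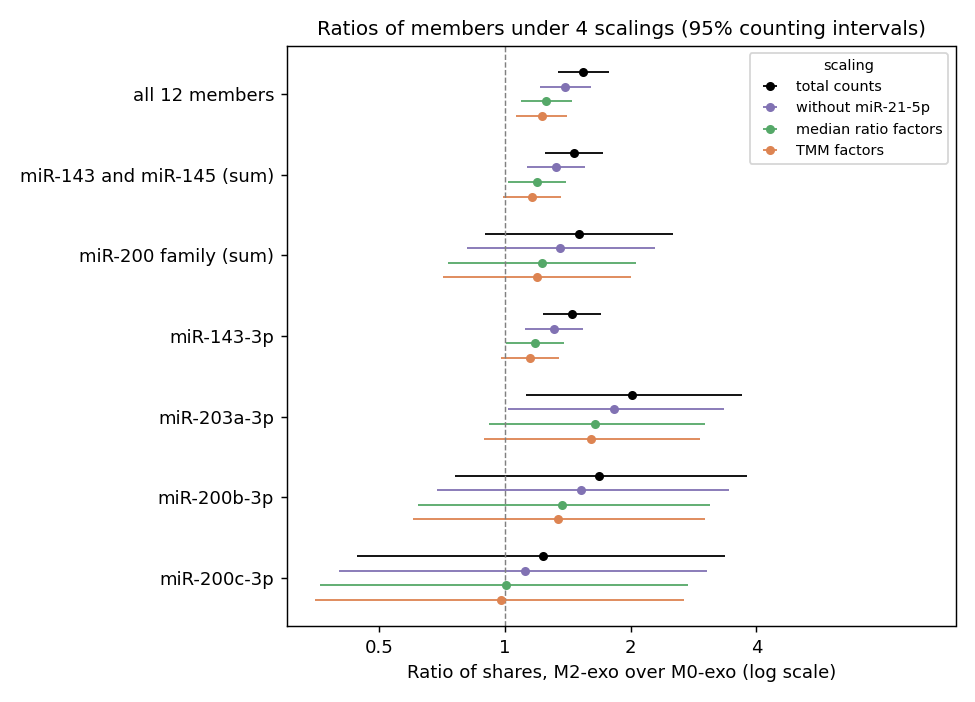
Ratio of shares, M2-exo over M0-exo (log scale), for sums and single members under 4 scalings, with exact 95% counting intervals as bars and a dashed line at 1. The ratio of miR-143-3p fell from 1.45 by total counts to 1.15 with TMM factors, and intervals of the miR-200 members included 1 under each of the 4 scalings.

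The recipient cells were examined for the genes around these miRNAs. Mature miRNAs are too short to be read in mRNA libraries, so their transfer cannot be seen there. Caco-2 libraries held 15608937 to 18324599 counts. Epithelial markers were present, with the cadherin gene CDH1 at 175, 179 and 174 FPKM in untreated and 176, 171 and 187 in treated cells, values that overlap; 8 of 9 listed epithelial markers had enough counts to test, and KRT20 did not. Of the other cell types, 3 of 8 listed macrophage markers had enough counts to test: CD14 (94 to 158 counts in a library), CSF1R (42 to 98) and LYZ (27 to 84). CD68 and TYROBP were at 0 counts in all 6 libraries. Among 8 fibroblast and smooth muscle markers 4 were tested, led by the collagen gene COL1A1 with a mean of 29.7 ± 8.45 CPM without and 27.5 ± 6.48 with M2-exo (SD over 3 libraries each). None of these markers was called.

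Few counts fell on the genes that encode the members and on MIR141. Whether mRNA libraries capture such short precursors was not tested, so 0 counts do not show that a miRNA is not made. Of 13 precursor genes, 7 had 0 counts in all 6 libraries, among them MIR143, MIR145, MIR192, MIR203A and MIR205, and the highest count in a library was 8, for MIR429. The long transcripts that span them were read next. CARMN, which spans MIR143 and MIR145, had 1 count, in treated 1, over all 6 libraries. MIR200CHG, which spans MIR200C and MIR141, stood at 0.715, 1.27 and 1.27 FPKM in untreated and 0.796, 1.64 and 1.10 in treated cells, with overlapping groups. MIR194-2HG, which spans MIR192 and MIR194-2, stood at 0.652, 1.09 and 0.899 FPKM and at 1.31, 0.471 and 0.938, and the treated values lay on both sides of the untreated ones (log2 fold change 0.04, SE 0.39). MIR205HG stood at 0.188 ± 0.116 FPKM and 0.175 ± 0.110 (SD, n = 3 each). IARS2, a mitochondrial tRNA synthetase gene that covers MIR194-1 on the opposite strand, stood at 96.1 ± 8.90 and 105 ± 8.45 FPKM. Whether counting used the strand is not given, so overlapping and antisense genes are uncertain.

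Regulators of these miRNAs were read on both sides, epithelial and mesenchymal. GRHL2, an activator of the epithelial programme and of miR-200 genes, stood at 12.3, 13.8 and 12.8 FPKM in untreated and 11.2, 13.9 and 12.3 in treated cells. HNF4A, a hepatic and intestinal factor, stood at 39.2 ± 11.5 FPKM in untreated and 39.4 ± 2.87 in treated cells, and CDX2, the intestinal homeobox factor, at 18.3 ± 8.71 and 22.1 ± 3.77 (SD, n = 3 each). The zinc finger genes OVOL1 and OVOL2, which repress mesenchymal genes, stood at 5.37 and 5.19 FPKM in untreated and at 5.86 and 4.56 in treated cells. On the other side, ZEB1 had 1 count over the 6 libraries, ZEB2 and TWIST1 had 0, and SNAI2 had 1. SNAI1, another repressor of epithelial genes, stood at 2.08, 4.70 and 6.33 FPKM in untreated and 3.73, 6.76 and 7.79 in treated cells, with overlapping groups (log2 fold change 0.47, SE 0.40). SRF, which drives miR-143 and miR-145 in muscle with its partners MYOCD and MRTFA, stood at 12.1 and 11.8 FPKM and MRTFA at 4.30 and 4.44. MYOCD had too few counts to test, as had TP63 at 0.0575 and 0.0549 FPKM. Of the 16 listed regulators, 10 were tested, 6 above and 4 below a log2 fold change of 0, and none was called.

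**Figure D5:**
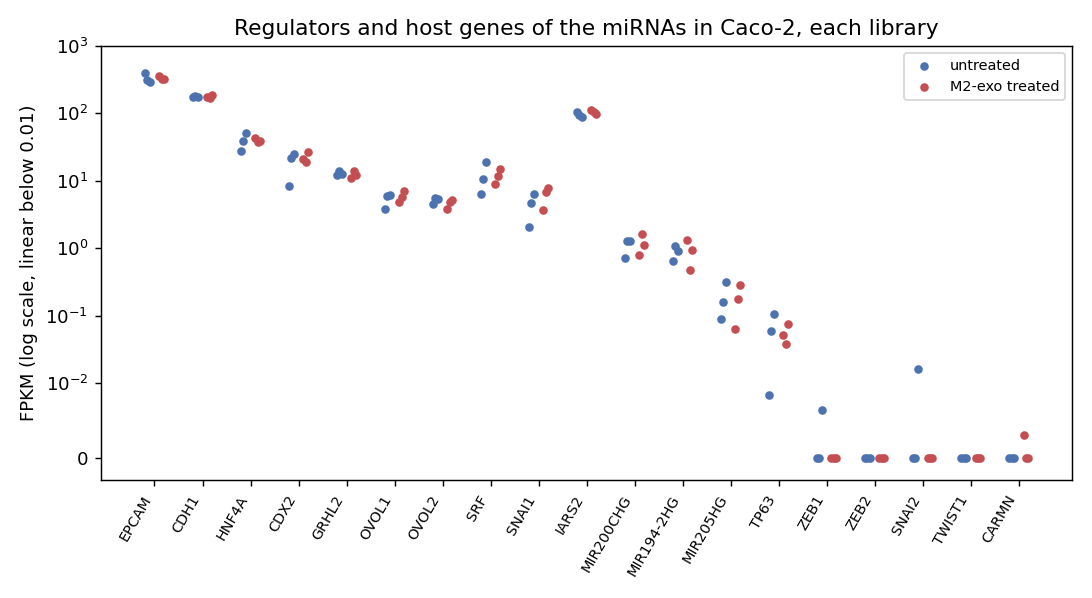
FPKM (log scale, linear below 0.01) of epithelial markers, regulators and spanning genes of the members in each of 3 untreated (blue) and 3 M2-exo treated (red) Caco-2 libraries. CDH1 and GRHL2 are level across libraries, whereas ZEB1, ZEB2, SNAI2, TWIST1 and CARMN lie at 0 in most or all libraries.

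Genes often reported as targets of the members were then compared between M2-exo treated and untreated cells, where edgeR called 0% of 15084 tested genes at an adjusted p under 0.05, with 111 at an unadjusted p under 0.05 (124 by DESeq2, which also called 0). The 4 target lists hold 79 distinct genes, 5 of them in more than 1 list, and 70 were tested. Of the 70, 35 had a log2 fold change above 0 and 35 below, with a median of 0.0002, none was called, and none had an unadjusted p under 0.05. The 111 genes are a far smaller share of the 15084 than the 0.05 expected with no effect. Small p-values were thus scarce here, and finding none among 70 carries little information. Why they were scarce was not tested. With the replicate number as a block, edgeR gave 211 genes at an unadjusted p under 0.05. Without the block, the median log2 fold change across all tested genes was -0.01. The lists were read by family. The miR-200 targets, 14 of 18 tested, lay above 0 in 7 cases and below in 7 (median -0.005). The classical targets ZEB1 and ZEB2 could not be compared for want of counts, nor could MSN and WASF3. Among those with a mean of at least 5 CPM, the ends of the list were ERRFI1 (0.11, SE 0.16) and the fibronectin gene FN1 (0.08, SE 0.14) on the higher side, and the Polycomb gene SUZ12 (-0.09, SE 0.20) and the cofilin gene CFL2 (-0.11, SE 0.23) on the lower.

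The targets of miR-203 and miR-205, 11 of 15 tested, lay above 0 in 5 cases and below in 6 (median -0.01). The ends named here are again of genes with a mean of at least 5 CPM. At the lower end VEGFA, the vascular growth factor gene, stood at 129.9, 116 and 168 CPM in untreated and 101, 112 and 135 in treated cells, which overlap (log2 fold change -0.25, SE 0.18; edgeR adjusted p = 0.9999). ERBB3 had -0.08, and CAV1, under 5 CPM, lay between them at -0.15. The upper end held the kinase gene ABL1 (0.08) and LASP1 (0.06), while SOCS3 (0.23) and PRKCE (0.17), under 5 CPM, lay higher. Those of miR-192 and miR-194, 19 of 21 tested, lay above 0 in 9 and below in 10 (median -0.01), from the thymidylate synthase gene TYMS (-0.22, SE 0.18) and ACVR2B (-0.12) to the ubiquitin ligase gene MDM2 (0.11) and HOXA10 (0.12).

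The targets of miR-143 and miR-145, the former being the one abundant member, were 30 of 32 tested, with 14 above 0 and 16 below (median -0.003). Among those with a mean of at least 5 CPM, the upper end was MYC, the growth regulator and a reported miR-145 target. MYC stood at 48.3, 53.2 and 70.6 CPM in untreated and 64.9, 83.7 and 75.5 in treated cells. The groups overlap, and the change did not pass (log2 fold change 0.38, SE 0.18; edgeR adjusted p = 0.9999). It had the smallest unadjusted p of the 70 targets, 0.0683. The actin-bundling gene FSCN1 had 0.23 (SE 0.33), and the lower end held CTNND1 (-0.11) and FNDC3B (-0.10). Under 5 CPM, KLF4 had a higher value than MYC (0.56, SE 0.35) at a mean of 2.00 CPM.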

How the data were processed

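The members and lists were chosen with earlier results of these data known. Small RNA of exosomes (1 M0-exo and 1 M2-exo library) and mRNA of Caco-2 cells (3 untreated, 3 M2-exo treated) were measured. The authors deposited whole-number read counts per miRNA, made with Bowtie per the submitters' processing notes (version, miRNA database and handling of multiply matching reads not given in the sources used here). They also deposited read counts and FPKM values per gene, from CASAVA, HISAT2 and featureCounts on GRCh38 per the same notes. Another 6 per-sample columns of the gene tables could be tied to no sample here and were not used.

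Member counts were divided by the column total. Shares had Clopper-Pearson and ratios exact conditional binomial 95% intervals (scipy 1.17.1). The limit of a count of 0 was 3 counts, and a minimum of 10 counts in the higher library applied to the count of ratios from 2 upward or 0.5 downward. The opposite-strand search used RefSeq mature coordinates, which were found for 249 of 286 entries. Caco-2 counts were fitted over all genes with edgeR 4.0.16 (R 4.3.3; filterByExpr, TMM, quasi-likelihood F test, 2-sided, Benjamini-Hochberg at 0.05), with CPM TMM-scaled and FPKM used to compare levels between genes. DESeq2 1.42.0, other scalings, no filter, a block on replicate number, and fits that leave out 1 library in turn, were alternatives. The interval and the fit were tested on simulated data. Named were all members, the listed regulators and spanning genes (2 regulators are not reported here), and the 2 highest and 2 lowest fold changes of each target list at a mean of at least 5 CPM.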

Additional observations from a re-analysis of the deposited data

How the results depend on the processing

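The ratio of all members was 1.22 with TMM factors, 1.26 with median ratio factors and 1.92 without miR-143-3p. For miR-143 and miR-145 it was 1.16 with TMM factors and 1.19 with median ratio factors. Both scalings divide every ratio by a constant. The number of members past a 2-fold ratio was 0 with TMM or median ratio factors, where 2.38% and 3.57% of the 84 entries reached a ratio of 2. It was 0 at a minimum of 50 counts, where 1 member and 31 entries are left and 0 entries passed, and 1 with equal rows counted once, an alternative chosen after seeing the data. Sums of the miR-200 family and of miR-203 and miR-205 kept a point ratio above 1 under all alternatives run. The interval of the miR-200 sum included 1 under each. The sum of miR-203 and miR-205 counts both entries of the equal pair except where equal rows are counted once. For miR-203a-3p alone the interval included 1 with TMM factors (0.892 to 2.94). In Caco-2, edgeR called 6 genes without a filter, none of them listed as a target, host or regulator, and 0 to 1 when 1 library was left out (the 1, BOLA2B, without M2-exo treated replicate 2). With the replicate number as a block it called 0, with 211 genes at an unadjusted p under 0.05 against 111. The smallest edgeR adjusted p was then 0.415, against 0.9999 without the block. The labels give no shared origin for equal replicate numbers, so the numbers were not taken as pairs. Deviations of same-numbered libraries correlated at 0.28, -0.06 and 0.48 for numbers 1 to 3, and those of crossed numbers at -0.42 to 0.18. For numbers 1 and 3 the same-numbered library was the best correlated, and for number 2 it was not. Whether libraries of the same number share an origin is not known. Medians of the 4 target lists ranged from -0.07 to 0.17 over the alternatives, with either sign in each list, and that of the regulators from -0.13 without untreated replicate 1 to 0.38 without untreated replicate 3. Depth is a limit in the exosome libraries, where 7 of 12 members had under 10 counts in both; with 1 library per group, greater depth would not make the ratios a comparison of conditions.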
